A study of Mus musculus with 8 samples.

Results

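The genes of DNA replication and mitosis were examined in label-retaining and non-label-retaining biliary cells of mouse liver. The set held 43 genes chosen by name for their textbook roles, of 46603 genes in the deposited count table. The choice applied no threshold to a measured value, but it was made with earlier results of these data known. By role, 11 members act in origin licensing and the replicative helicase, 4 in the replication clamp and nucleotide supply, 12 are cyclins and mitotic kinases, 2 belong to the anaphase-promoting complex pathway, 6 to chromosomes and kinetochores, and 8 to the spindle and cytokinesis. The first 15 are called replication members here and the other 28 mitosis members.

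RNA-seq had been performed on 8 libraries, an EGFP+ and an EGFP- library from each of 4 mice (JV602, JV621, JV624 and JV6314). All mice were R26rtTA het/H2B-EGFP het on a mixed C57BL/6 and CBA background, and all received doxycycline from postnatal day 0 to 5, which switched on a histone 2B-EGFP fusion that is diluted at each division. At 8 weeks, EpCAM+CD45- cells were sorted into EGFP+ cells (liver label-retaining cells, LLRCs) and EGFP- cells (non-LRC cells), so both groups shared genotype, doxycycline and animal and were separated by the retained label. Both sexes were used in the study. The Rosa26 locus drives the transactivator in all cell types, so the label is not restricted to a lineage, and the study also saw EGFP in hematopoietic cells of such mice without doxycycline. Label at 8 weeks depends on labelling in the pulse and on the divisions since, whereas the RNA reports the moment of the sort. In the study, not every biliary cell held EGFP at postnatal day 5, so EGFP- cells may include cells that were never labelled.

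Before S phase, the MCM2-7 helicase is loaded on origins by CDC6 and CDT1, and CDC45 and the GINS complex then turn it on. Cyclin-dependent kinase 1 with the A and B cyclins drives mitosis, the Aurora, Polo-like, BUB and TTK kinases control spindle attachment, and CDC20 with UBE2C lets the anaphase-promoting complex end it. Cholangiocytes of an uninjured adult liver divide rarely, and transcripts of the mitosis genes are made mainly in G2 and M, so a population at rest is known for low levels of both gene groups and the lowest levels of the second.

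The 2 gene groups are textbook targets of different promoter elements, E2F sites for genes of S phase and the CHR element with CCAAT boxes for genes of G2 and M. Promoter sequences of RefSeq (GRCm38.p6) were matched by symbol for 35 of the 43 members. Within 250 bases before a gene's start, on either strand, the CHR letters TTTGAA were found in 2 of 12 replication members (16.7%), in 9 of 23 mitosis members (39.1%) and in 18.3% of 27025 genes. The letters CCAAT were found in 66.7% of these replication members, 82.6% of these mitosis members and 37.5% of all genes. E2F letters (TTTCCCGC, TTTGGCGC, TTTCGCGC or TTTGCCGC) were found in 4 of 12 replication members (33.3%), in 1 of 23 mitosis members (4.35%) and in 2.16% of all genes. A match is a description of the letters and says nothing of binding in these cells.

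The 120 bases before the start of 6 members are shown because the comparisons below turn on these genes, 2 of them replication members and 4 mitosis members. Each runs 5′ to 3′ along the gene's strand and ends at the base before the start that RefSeq gives. In the GENCODE bounds used for gene coordinates, Pcna starts 134 bases and Cenpa 109 bases further upstream, so that 120 and 109 bases of these windows lie inside the gene, as do 9 bases of the Cdc20 window. Capitals mark any of the 3 motifs on either strand, so CCAAT also appears as ATTGG. In Mcm6 the run TTTGGCGCGAAA holds an overlapping pair of E2F matches, TTTGGCGC and, on the opposite strand, TTTCGCGC. The windows are chr1:128359706-128359825, minus strand, for Mcm6, chr2:132253181-132253300, minus strand, for Pcna, chr4:118437344-118437463, minus strand, for Cdc20, chr9:70421555-70421674, minus strand, for Ccnb2, chr7:135716380-135716499, minus strand, for Mki67, and chr5:30666766-30666885, plus strand, for Cenpa.
Mcm6: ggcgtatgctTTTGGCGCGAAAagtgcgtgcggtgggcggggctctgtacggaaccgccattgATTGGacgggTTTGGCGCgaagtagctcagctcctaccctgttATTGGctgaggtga
Pcna: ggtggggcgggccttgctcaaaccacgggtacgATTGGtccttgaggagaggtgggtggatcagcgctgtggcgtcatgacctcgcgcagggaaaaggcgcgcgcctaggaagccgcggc
Cdc20: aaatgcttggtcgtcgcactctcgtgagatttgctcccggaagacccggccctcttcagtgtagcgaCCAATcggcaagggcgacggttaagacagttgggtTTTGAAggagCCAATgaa
Ccnb2: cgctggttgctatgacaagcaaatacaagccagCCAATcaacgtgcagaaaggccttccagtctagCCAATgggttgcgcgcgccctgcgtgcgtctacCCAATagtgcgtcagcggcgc
Mki67: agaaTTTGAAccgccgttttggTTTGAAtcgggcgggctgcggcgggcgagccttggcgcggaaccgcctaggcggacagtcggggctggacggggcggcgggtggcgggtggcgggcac
Cenpa: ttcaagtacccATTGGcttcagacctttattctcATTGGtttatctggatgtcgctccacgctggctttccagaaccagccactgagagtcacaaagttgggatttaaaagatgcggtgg
Cdc20 thus carried TTTGAA 13 bases from its RefSeq start with CCAAT boxes on either side, Mki67 carried TTTGAA in 2 places, Ccnb2 carried 3 CCAAT boxes, and Cenpa carried CCAAT boxes without TTTGAA in its window.

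Total counts were 7860021 to 9851819 in LLRC libraries and 4670132 to 8056103 in non-LRC libraries, and the LLRC library was the deeper one in every mouse. Levels are given as CPM, counts per 1e6 counts after TMM scaling of the library sizes. Where 4 values follow each other, they are in the mouse order JV602, JV621, JV624, JV6314. The biliary markers Epcam and Krt19 were read in all 8 libraries, at means of 258.4 and 67.4 CPM per kb of exon. The non-LRC library of JV621 stood apart, since 8.15% of the genes with a median of at least 50 counts in the other libraries had 0 counts there, against 2.61% in the non-LRC library of JV6314 and 0.0331% to 0.273% in the other 6. Summed over their lists, endothelial markers stood at 31.5 to 63.5 CPM in LLRCs and 208.1 to 854.1 CPM in non-LRC cells, stellate markers at 284.5 to 911.2 against 744.5 to 3228 CPM, and Kupffer markers at 0 to 0.388 against 0.501 to 22.7 CPM. The endothelial and Kupffer sums did not overlap between the groups, whereas the stellate sums did, although in every mouse the non-LRC library had the higher stellate sum. Of the 12 endothelial markers tested, 12 had a lower fitted level in LLRCs, and the groups did not overlap for 11 of them. The groups overlapped for the sums of cholangiocyte markers (115147 to 221928 against 66552 to 163148 CPM), hepatocyte markers (2942 to 3439 against 2196 to 7140 CPM), leukocyte markers (38.2 to 73.1 against 39.8 to 91.9 CPM) and erythroid markers (1.11 to 111.8 against 0.501 to 457.6 CPM). By gene, 11 of the 12 hepatocyte markers, all but Alb, which was the largest part of that sum, had a lower fitted level in LLRCs, 7 of them at an unadjusted p below 0.05 in edgeR, and their median was -1.71 as a log2 fold change. The cholangiocyte sum was mostly Spp1, and 10 of these 13 markers were above 0 and 3 below, with a median of 0.28. The leukocyte sum was mostly Cd74 and Csf1r, which were tested and had fitted values below 0. Ptprc, the CD45 gene and the only other leukocyte marker tested, had 5, 34, 14 and 59 counts in LLRCs against 0, 0, 0 and 7. Its log2 fold change was 3.27 (unadjusted p = 0.0468, adjusted p = 0.957 in edgeR). Pancreatic acinar markers stood at 2.13 to 23.5 CPM in 7 libraries and at 2041 CPM in the non-LRC library of JV6314. The part of any of these in the member values was not tested, and in bulk RNA fewer cells of a type and less RNA per cell cannot be told apart.

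The summed level of the members differed between LLRCs and non-LRC cells by less than the spread between mice. The sum was 291.5, 270.0, 225.5 and 242.3 CPM in LLRCs, against 258.1, 278.1, 182.9 and 331.3 CPM in the non-LRC libraries. The means were 257.3 ± 29.3 and 262.6 ± 61.4 CPM (SD, n = 4 each), and the ranges overlapped. Replication members made up most of this, between 65.4% and 90.0% of the member sum in a library. They summed to 250.1, 206.0, 199.3 and 200.4 CPM in LLRCs against 231.1, 250.4, 159.0 and 216.7 CPM in non-LRC cells. Mitosis members summed to 41.4, 64.0, 26.2 and 41.9 CPM in LLRCs against 27.1, 27.8, 24.0 and 114.6 CPM in non-LRC cells. The lowest mitosis sum of the LLRCs therefore lay within the range of the non-LRC libraries, and the highest sum of all came from the non-LRC library of JV6314.

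**Figure D1:**
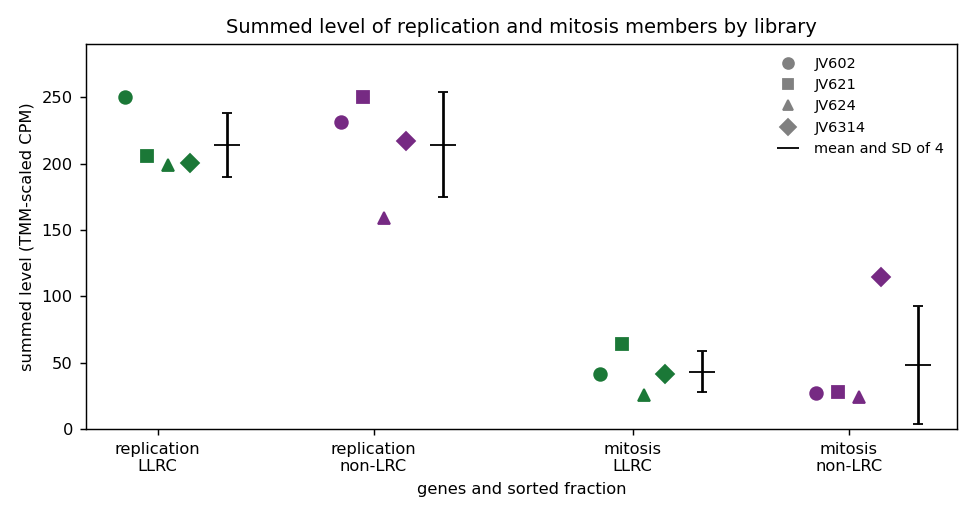
Summed TMM-scaled CPM of the 15 replication and 28 mitosis members (y axis) in LLRC (green) and non-LRC (purple) libraries, with 1 symbol per mouse and the mean and SD of 4 libraries beside them. Replication sums lie between 159.0 and 250.4 CPM in both fractions, and the mitosis sum of the non-LRC library of JV6314, 114.6 CPM, is above the other 7.

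Per length, the mitosis members had a lower median level than the replication members. The median mean level was 1.82 CPM per kb over replication members and 0.228 CPM per kb over mitosis members, against 4.55 CPM per kb over the genes tested. These medians lay at percentiles 26.7 and 0.94 of the genes tested. The genes tested had passed the expression filter, as had 14 of 15 replication members but only 9 of 28 mitosis members. The low percentile of the latter was thus largely set by the filter, and members were not ranked among all genes with a count. A count of 0 was read in 3 of 60 library values of the replication members in LLRCs against 11 of 60 in non-LRC cells. For mitosis members it was read in 32 of 112 values in LLRCs against 66 of 112 in non-LRC cells. A total of 10 members had a count in every library, and 7 of them (Mcm2, Mcm4, Mcm6, Mcm7, Pcna, Tyms and Tk1) were replication members, the other 3 being Cdc20, Top2a and Cenpa.

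**Figure D2:**
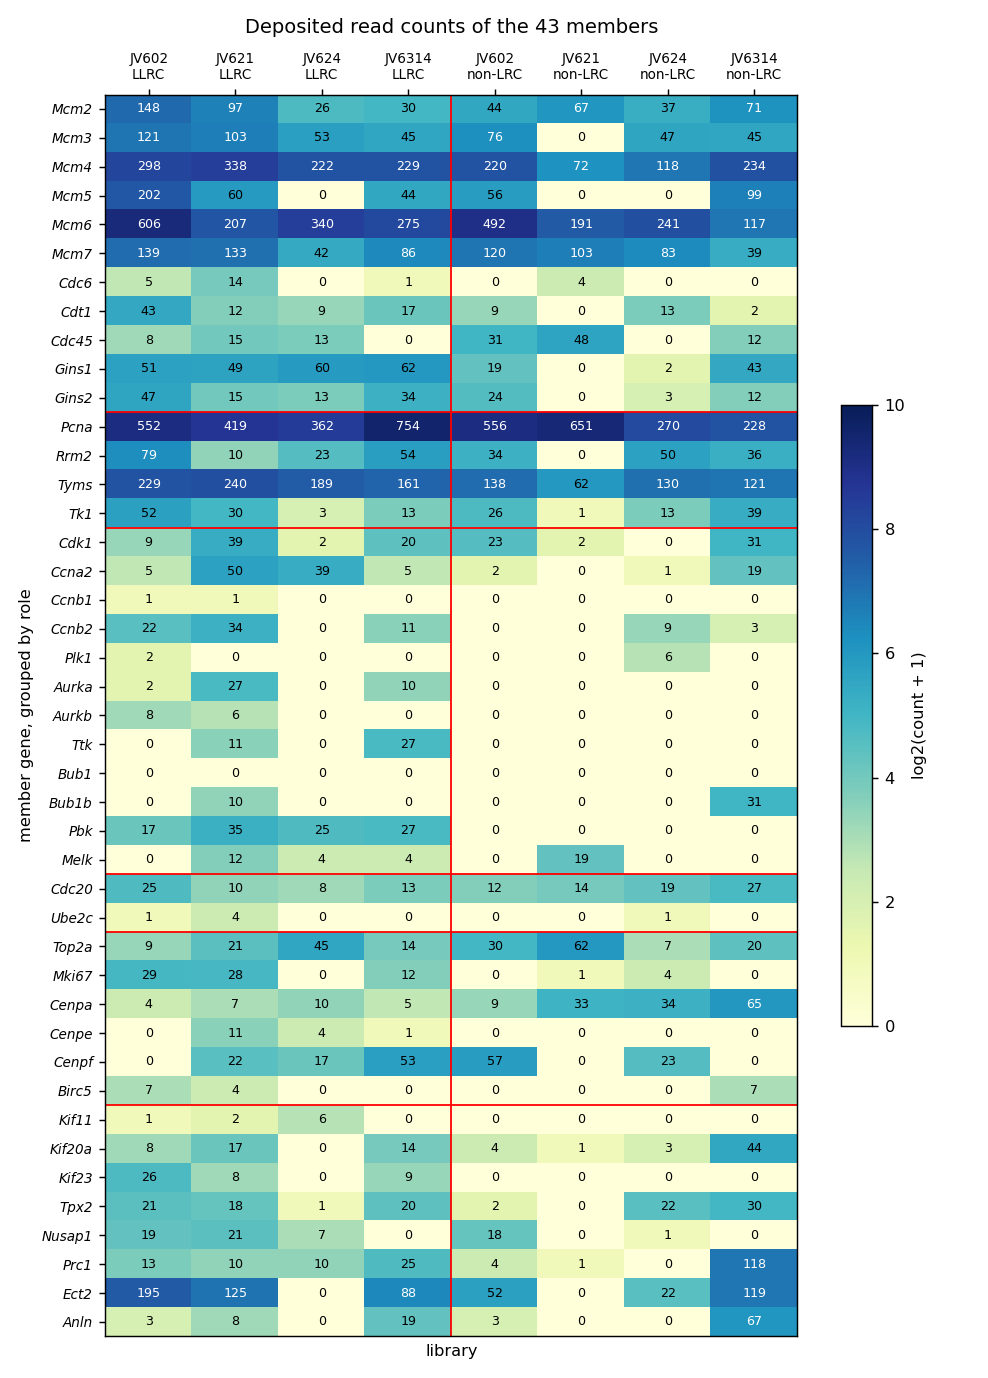
Deposited counts of each of the 43 members (rows, grouped by role, red lines between roles) in the 4 LLRC and 4 non-LRC libraries (columns), printed in the cells and coloured by log2(count + 1). Counts of Mcm4, Mcm6, Pcna and Tyms are mostly above 100 in both fractions, while most kinase and spindle rows hold zeros, with 9 rows at 0 in all non-LRC libraries.

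In every mouse, more members were detected among LLRCs than among non-LRC cells. With detection set at 1 count, 37, 41, 26 and 33 members were detected in LLRCs, against 26, 17, 25 and 27 in the non-LRC libraries. At a common floor of 0.626 CPM, which is 3 counts in the library where a count weighs most, the numbers were 28, 37, 21 and 28 against 21, 12, 19 and 25. In JV624 the fractions differed by 1 member at 1 count, and the gap was widest in JV621, whose non-LRC library held zeros for many abundant genes. Genes in general were also detected more often in LLRC libraries, with 18488 to 20430 genes against 14234 to 18930, and the LLRC library had the larger number in each mouse.

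Counted by gene, 27 members (62.8%) had a count in more LLRC than non-LRC libraries, 1 (Kif20a) in fewer, and 15 in equal numbers. Among all genes with a count, 37.6% were read in more LLRC libraries and 12.8% in fewer. Among genes with 1 to 114 counts over the 8 libraries, 114 being the members' median total, these shares were 55.2% and 23.3%. In the same range of counts, 18 of 21 members (85.7%) were read in more LLRC libraries and 1 (4.76%) in fewer. Depth was unequal in the same direction, and its part in these counts was not tested. All 4 LLRC libraries held a count for 20 members, and all 4 non-LRC libraries for 11. Counts were 0 in all non-LRC libraries for 9 members (Ccnb1, Aurka, Aurkb, Ttk, Bub1, Pbk, Cenpe, Kif11 and Kif23), and of these only Bub1 was also at 0 in all LLRC libraries. Pbk was the only one of them read in all 4 LLRC libraries, a pattern of all LLRC and no non-LRC libraries that 0.323% of genes with a count showed.

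**Figure D3:**
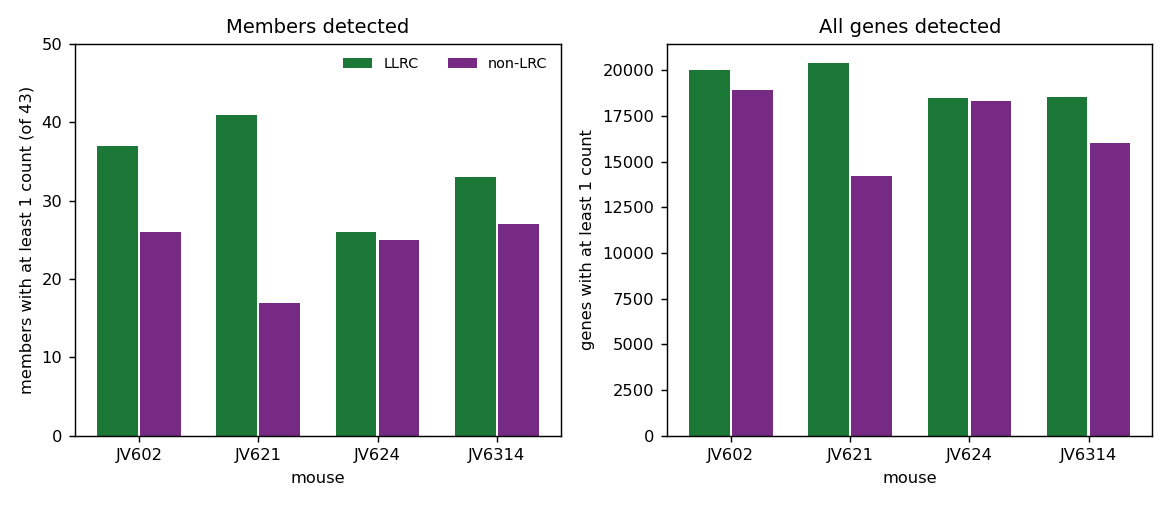
Number of the 43 members (left) and of all genes (right) with at least 1 count in the LLRC (green) and non-LRC (purple) library of each mouse. The LLRC bar is the higher one in all 4 mice in both panels, by 41 to 17 members in JV621 and by 26 to 25 in JV624.

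Of the 43 members, 23 passed the expression filter and were tested between LLRCs and non-LRC cells, 14 replication and 9 mitosis members, and the other 20 were too low to test. None had an adjusted p below 0.05 in edgeR's quasi-likelihood test with Benjamini-Hochberg adjustment over the 13605 genes tested, of which 0% were called. The limma test with sample quality weights and the fit with the mouse as a block also called 0 members and 0% of genes. An unadjusted p below 0.05 was found for 2 members, 1 in each direction, against 5.16% of genes tested (1.6% higher and 3.56% lower in LLRCs). These were Pbk, with the higher level in LLRCs, and Cenpa, with the lower. At an unadjusted p below 0.05, limma had 3 members against 6.51% of genes tested, and the fit with the mouse 2 against 4.18%. DESeq2, which called 221 of 13385 genes (1.65%), called the same 2 members, and the edgeR exact test, which called 1.32% of genes, called Pbk alone. With every gene of at least 1 count tested, 0.0399% of genes and 0 members were called. The fitted fold changes were above 0 in 11 members and below 0 in 12, with a median log2 fold change of -0.08, beside a median of -0.01 and 48.9% above 0 over all genes tested. Without the non-LRC library of JV6314 the split was 16 above 0 and 9 below, with a median of 0.51 beside 0.0050 over all genes. With the mouse as a block it was 15 and 8, with a median of 0.36 beside 0.14 over all genes. The members that passed did so partly through the group in which they were higher, so this count describes those members only.

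**Figure D4:**
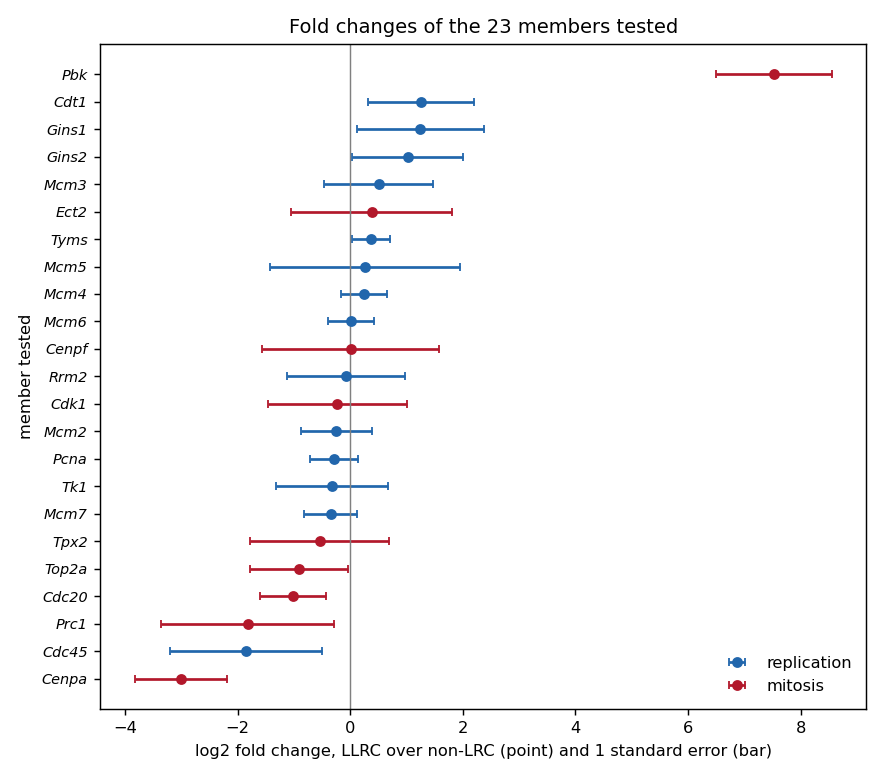
Log2 fold change of LLRCs over non-LRC cells (point) with 1 standard error (bar) for the 23 members tested, replication members in blue and mitosis members in red. Most bars cross or come close to 0, with Pbk at 7.52 and Cenpa at -3.001 at the ends, and the value of Pbk depends on the prior count because its non-LRC counts are all 0.

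Without a model, the groups did not overlap for 1 member with LLRCs higher (Pbk) and for 0 with LLRCs lower, against 2.15% and 1.91% of genes tested and 1.59% and 1.15% of all genes with a count. Within mice, LLRCs were higher in 4 of 4 mice for 2 members (Pbk and Gins2) and lower in 4 of 4 for 1 (Cenpa), against 7.74% and 5.53% of genes tested. The first count rested on the libraries used. It was 4 without the LLRC library of JV624 (Pbk, Aurka, Mki67 and Kif23) and 4 without the non-LRC library of JV6314 (Pbk, Gins1, Ccna2 and Prc1). It was 2 without the LLRC library of JV602 (with Cenpe) or of JV6314 (with Kif11), and 2 without the non-LRC library of JV624 (with Cdt1). With LLRCs lower, it was 1 without the LLRC library of JV602 (Cdc20) or of JV624 (Cenpa), 1 without the non-LRC library of JV624 (Cdc45), and 2 when the JV602 library was left out of the non-LRC group (Cdc20 and Cenpa). Fewer libraries also raised the share of genes without overlap, to 2.33% to 4.15% of all genes with a count for LLRCs higher and to 1.38% to 3.04% for LLRCs lower when 1 library was left out. For LLRCs higher the share was 2.51% without the LLRC library of JV624 and 2.76% without the non-LRC library of JV6314, the 2 settings with 4 members.

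The helicase and licensing genes differed in summed level by less than the spread between mice, at 122.7 ± 29.3 CPM in LLRCs against 114.2 ± 24.7 CPM in non-LRC cells (SD, n = 4 each). The 6 MCM subunits, which join in equal numbers in a ring, were unequal as transcripts. Per length, Mcm6 was among the 2 highest subunits in 8 of 8 libraries (4.95 to 13.2 CPM per kb) and Mcm4 in 7 of 8 (4.19 to 12.9 CPM per kb). Mcm7 lay at 1.40 to 4.86, Mcm3 at 0 to 3.25, Mcm5 at 0 to 4.90 and Mcm2 at 0.479 to 2.06 CPM per kb. The divisor is the union of annotated exons, 6.956 kb for Mcm2 against 3.589 kb for Mcm4, and may differ from the transcripts present. Not divided by length, mean CPM was 40.8 for Mcm6, 29.3 for Mcm4, 12.8 for Mcm7, 9.04 for Mcm2, 7.81 for Mcm3 and 7.26 for Mcm5. The order of the lower 4 subunits changed between libraries, and the 3 values of 0 for Mcm5 came from both fractions of JV624 and the non-LRC library of JV621.

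**Figure D5:**
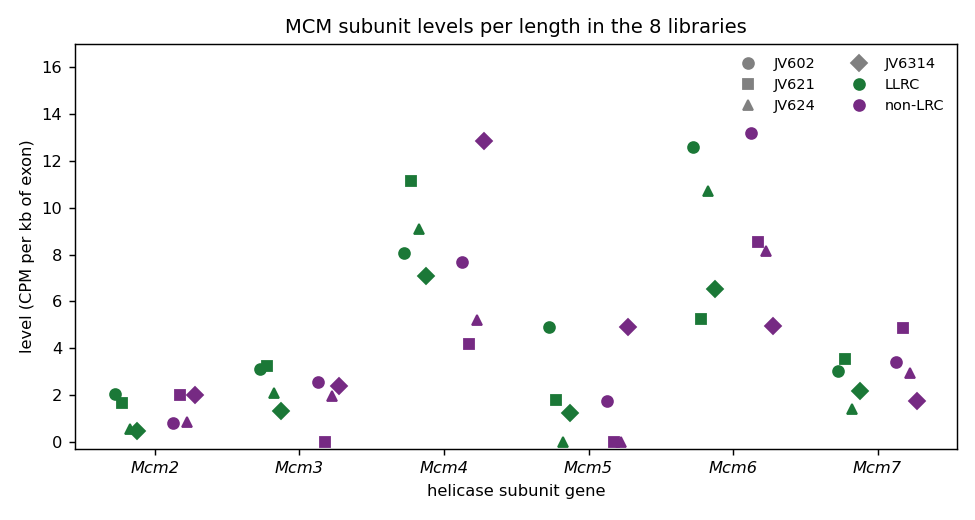
Level per kb of exon (y axis, TMM-scaled CPM per kb) of the 6 MCM helicase subunits in each library, LLRC in green and non-LRC in purple, with 1 symbol per mouse. Mcm4 and Mcm6 lie above 4 CPM per kb in every library, and the other subunits stay below 5 CPM per kb.

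Mcm6 (ENSMUSG00000026355, chromosome 1, 128331590 to 128359664, GRCm38), whose promoter window above carries the E2F letters, was at 58.7, 24.5, 50.004 and 30.5 CPM in LLRCs. In the non-LRC libraries it was at 61.6, 39.9, 38.0 and 23.1 CPM. The fractions overlapped throughout, and the log2 fold change was 0.01 (SE 0.41), with a sign that changed with the scaling (-0.03 with DESeq2 size factors). Mcm4 was at 28.9, 39.98, 32.6 and 25.4 CPM in LLRCs against 27.6, 15.03, 18.6 and 46.2 CPM in non-LRC cells (log2 fold change 0.24, SE 0.41). The LLRC values of Mcm4 were close together and fell inside the wider non-LRC range. For Mcm2, Mcm3, Mcm5 and Mcm7 the log2 fold changes lay between -0.35 and 0.50, none past the threshold.

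The activators of the helicase varied widely between libraries. Cdc45 (chromosome 16, 18780447 to 18811987), which opens the loaded helicase, had 8, 15, 13 and 0 counts in LLRCs against 31, 48, 0 and 12 in non-LRC cells. A zero was thus read in each fraction, and the log2 fold change was -1.86 (SE 1.35, adjusted p = 0.9999 from edgeR). It was -0.90 without the non-LRC library of JV621 and -0.52 in limma. The GINS subunit gene Gins1 had 51, 49, 60 and 62 counts in LLRCs against 19, 0, 2 and 43 in non-LRC cells. On the CPM scale these were 4.94, 5.80, 8.82 and 6.88 against 2.38, 0, 0.316 and 8.48, so that only the non-LRC library of JV6314 reached the LLRC range. The log2 fold change of Gins1 was 1.24 (SE 1.13), not past the threshold. Without that library it was 2.80, and the non-LRC mean went from 2.79 to 0.898 CPM. Gins2, the partner subunit, had 47, 15, 13 and 34 counts against 24, 0, 3 and 12 and was higher in the LLRC library of each mouse, with a log2 fold change of 1.02 (SE 0.98), which lay between 0.63 and 1.66 with 1 library left out. For Gins2, 67.3% of the exon bases are shared with Gse1 on the opposite strand, so its unstranded counts are uncertain. Such overlaps also cover 22.8% of the exon bases of Ube2c, 12.5% of Ccna2 and 11.1% of Prc1.

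CDT1 and CDC6, the loading factors, were also read at low counts. Cdt1 had 43, 12, 9 and 17 counts in LLRCs against 9, 0, 13 and 2 in non-LRC cells, with the higher value in the LLRC library of 3 of 4 mice and a log2 fold change of 1.26 (SE 0.94). The latter was 0.76 without the LLRC library of JV602 and 2.02 without the non-LRC library of JV624. Cdc6 had 5, 14, 0 and 1 counts against 0, 4, 0 and 0 and was not tested. Neither gene separated the fractions.

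Among the genes of the clamp and nucleotide supply, which summed to 91.2 ± 12.1 CPM in LLRCs against 100.1 ± 33.8 CPM in non-LRC cells, Pcna (ENSMUSG00000027342, chromosome 2, 132249162 to 132253314) was the most abundant member per length, at 27.8 CPM per kb. Pcna encodes the sliding clamp of the replicative polymerases, which also serves in DNA repair. It was at 53.5, 49.6, 53.2 and 83.7 CPM in LLRCs against 69.6, 135.9, 42.6 and 45.0 CPM in non-LRC cells. The highest value came from the non-LRC library of JV621, and the log2 fold change was -0.29 (SE 0.42). It turned to 0.20 without that library. Reads of Pcna and its processed pseudogene Pcna-ps2 can be split by the counting, and the pseudogene had 0.785 to 1.71 times the counts of Pcna and a log2 fold change of -0.30, so the level of Pcna is uncertain.

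Tyms, which encodes thymidylate synthase, was at 22.2, 28.4, 27.8 and 17.9 CPM in LLRCs against 17.3, 13.0, 20.5 and 23.9 CPM in non-LRC cells. The log2 fold change was 0.37 (SE 0.34), and the LLRC library was the higher one in 3 of 4 mice. Rrm2, the regulated subunit of ribonucleotide reductase, and Tk1, the thymidine kinase of S phase, stood at 4.55 ± 2.85 against 4.81 ± 3.57 CPM and at 2.62 ± 2.07 against 3.30 ± 3.19 CPM (SD, n = 4 each). Both varied more within a fraction than between fractions, and the non-LRC mean of Tk1 was 1.84 CPM without JV6314, below the LLRC mean.

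The cyclins and mitotic kinases summed to 6.40, 26.6, 10.3 and 11.5 CPM in LLRCs against 3.13, 4.39, 2.53 and 16.6 CPM in non-LRC cells. The LLRC library was higher in 3 of 4 mice, and the non-LRC library of JV6314 was higher than its LLRC partner. The group means were 13.7 ± 8.87 and 6.65 ± 6.66 CPM (SD, n = 4 each), and the non-LRC mean was 3.35 CPM without JV6314. Of 48 library values, 19 were 0 in LLRCs against 37 in non-LRC cells.

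Pbk (ENSMUSG00000022033, chromosome 14, 65805837 to 65817822, plus strand), a mitotic kinase also known as TOPK, had the lowest p of all members tested. It had 17, 35, 25 and 27 counts in LLRCs, with 0 in each of the 4 non-LRC libraries. These LLRC counts correspond to 1.65, 4.14, 3.68 and 3.00 CPM. Every LLRC library was above every non-LRC library. With no non-LRC count, Pbk passed the expression filter through its LLRC counts alone. Its p-values and its rank among members tested are therefore no separate support for the difference. Set against 3 counts summed over the non-LRC group (0.124 CPM), Pbk was 24.2-fold higher in LLRCs. That ratio takes the LLRC counts as read and allows for counting error in the non-LRC zeros only. The adjusted p was 0.116 in edgeR's quasi-likelihood test (unadjusted p = 0.000291 in the same edgeR test), 1.28e-04 in DESeq2 and 0.877 in edgeR with the mouse as a block. The last 2 values were the lowest and the highest of 18 alternatives. Pbk is a gene that the study itself listed from these libraries, so its direction here is not independent evidence.

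The other kinases and the cyclins were near the limit of detection. Cdk1, the central mitotic kinase, had 9, 39, 2 and 20 counts in LLRCs against 23, 2, 0 and 31 in non-LRC cells, and its log2 fold change of -0.23 (SE 1.24) changed sign in 6 of 18 alternatives, among them 0.82 without the non-LRC library of JV6314. Ccna2 (cyclin A2) had 5, 50, 39 and 5 counts against 2, 0, 1 and 19. Ccnb2 (cyclin B2) had 22, 34, 0 and 11 counts against 0, 0, 9 and 3. For both cyclins the LLRC library was higher in 3 of 4 mice and the fractions overlapped, and neither was tested. Of the CCAAT-rich Ccnb2 gene, a pseudogene (Ccnb2-ps) held up to 10 counts in a library, whereas Ccnb1 (cyclin B1) had 1 count in each of 2 LLRC libraries and none elsewhere.

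Aurka, which builds the spindle poles, had 2, 27, 0 and 10 counts in LLRCs, Ttk, a kinase of the spindle checkpoint, had 0, 11, 0 and 27, and Aurkb, of the chromosomal passenger complex, had 8, 6, 0 and 0. All 3 had no count in any non-LRC library. Set against 3 counts over that group, with the LLRC counts taken as read, they were 9.09-fold, 8.86-fold and 3.26-fold higher in LLRCs. Without the LLRC library that was highest for each (JV621, JV6314 and JV602), these ratios were 3.70-fold, 3.47-fold and 1.99-fold. They rested on 2 or 3 LLRC libraries each, and none of these genes had a count in the LLRC library of JV624. The remaining kinases were rare in both fractions. Bub1b was read only in JV621 LLRCs (10 counts) and in JV6314 non-LRC cells (31 counts), and Plk1 had 2 counts in LLRCs against 6 in non-LRC cells. Melk had 20 counts in 3 LLRC libraries and 19 in the non-LRC library of JV621.

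Of the anaphase-promoting complex pathway, Cdc20 (chromosome 4, 118432901 to 118437352), the co-activator that starts anaphase, was among the few mitosis members read in every library. It had 25, 10, 8 and 13 counts in LLRCs against 12, 14, 19 and 27 in non-LRC cells, or 2.42, 1.18, 1.18 and 1.44 CPM against 1.503, 2.92, 2.999 and 5.33 CPM. The LLRC library was the lower one in 3 mice and the higher one in JV602. The log2 fold change was -1.02 (SE 0.59, adjusted p = 0.9999 from edgeR). Ube2c, the E2 enzyme of the complex, had 5 counts in LLRCs against 1 in non-LRC cells.

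Chromosome and kinetochore genes summed to 4.75, 10.999, 11.2 and 9.44 CPM in LLRCs against 12.02, 20.05, 10.7 and 18.2 CPM in non-LRC cells, with means of 9.09 ± 3.00 and 15.2 ± 4.56 CPM (SD, n = 4 each). Most of the gap between these means was that of Cenpa, at 0.810 ± 0.476 CPM in LLRCs against 6.55 ± 4.84 CPM in non-LRC cells (SD, n = 4 each). Cenpa (ENSMUSG00000029177, chromosome 5, 30666777 to 30674830, plus strand) encodes the histone H3 variant that marks centromeres, which is loaded after mitosis and retained through later divisions. It had 4, 7, 10 and 5 counts in LLRCs against 9, 33, 34 and 65 in the non-LRC libraries. On the CPM scale these were 0.388, 0.828, 1.47 and 0.555 against 1.13, 6.89, 5.37 and 12.8. The LLRC library was lower in 4 of 4 mice, and the groups overlapped only where the LLRC library of JV624 exceeded the non-LRC library of JV602. The log2 fold change was -3.001 (SE 0.82), with an unadjusted p of 0.00508 and an adjusted p of 0.416 in edgeR. Over 18 alternatives the log2 fold change lay between -3.43 and -1.98 and the adjusted p between 0.0204 (DESeq2) and 0.9999. The sums of endothelial and stellate markers were also higher in the non-LRC library of every mouse, and 11 of 12 hepatocyte markers had a lower fitted level in LLRCs. The part of these in the level of Cenpa was not tested.

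Mki67 (ENSMUSG00000031004, chromosome 7, 135689784 to 135716361), which encodes the Ki67 antigen that the study stained, had 29, 28, 0 and 12 counts in LLRCs against 0, 1, 4 and 0 in non-LRC cells. The LLRC library was higher in 3 of 4 mice, and in JV624 the non-LRC library was. In a Ki67 staining series whose ages span that of the sort, the study reported less proliferation among EGFP+ than EGFP- biliary cells. The Mki67 counts of those 3 mice ran the other way, and the reason was not tested. At 10.1 kb of exon only Cenpf was longer among the members, and the mean level of Mki67 was 0.103 CPM per kb. It did not pass the expression filter, so no test was made. Top2a, the topoisomerase that untangles sister chromatids, was read in every library and had a log2 fold change of -0.91 (SE 0.87). Its counts were 9, 21, 45 and 14 in LLRCs against 30, 62, 7 and 20 in non-LRC cells, and JV624 again ran against the other mice. The fold change was -0.03 without the non-LRC library of JV621 and -1.71 without the LLRC library of JV624.

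The remaining kinetochore members differed in which libraries held them. Cenpf had 0, 22, 17 and 53 counts in LLRCs against 57, 0, 23 and 0 in non-LRC cells, and its log2 fold change was 0.01 (SE 1.58). Cenpe, a kinetochore motor, had 0, 11, 4 and 1 counts in LLRCs against none in non-LRC cells, at least 3.73-fold higher, or 1.54-fold without JV621. Birc5 (survivin) had 11 counts in LLRCs against 7 in non-LRC cells, the latter all from JV6314.

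The spindle and cytokinesis genes were the most uneven group. They summed to 27.7, 24.7, 3.53 and 19.4 CPM in LLRCs against 10.4, 0.418, 7.58 and 74.6 CPM in non-LRC cells. The mean was 18.9 ± 10.8 CPM in LLRCs against 23.2 ± 34.5 CPM in non-LRC cells (SD, n = 4 each), and the latter was 6.13 CPM without JV6314. In this non-LRC library Prc1 had 118 counts, Ect2 119, Anln 67 and Kif20a 44. Of these, Prc1, Anln and Kif20a had their highest count there, as did Cenpa, with 65 counts, and Bub1b, with 31, outside this group, whereas Pbk, Aurka, Aurkb, Ttk, Kif11, Kif23 and Mki67 had none. The acinar marker sum of 2041 CPM stood in the same library, which also had the fewest total counts, and their part in these values was not tested.

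Prc1, which bundles the microtubules of the central spindle, had 13, 10, 10 and 25 counts in LLRCs against 4, 1, 0 and 118 in non-LRC cells. Its LLRC values were above the non-LRC values of 3 mice and below that of JV6314. The log2 fold change was -1.82 (SE 1.54) with all libraries and 2.69 without the non-LRC library of JV6314, and neither passed the threshold. Ect2 (chromosome 3, 27097222 to 27153878), the exchange factor that activates RhoA for the cleavage furrow, had the highest mean level per length of the mitosis members over both fractions, at 1.79 CPM per kb. In LLRCs it stood at 2.02 CPM per kb against 0.833 for Cdc20, and in non-LRC cells at 1.55 against 1.71 for Cdc20. It had 195, 125, 0 and 88 counts in LLRCs against 52, 0, 22 and 119 in non-LRC cells (log2 fold change 0.38, SE 1.44, and 1.69 without the non-LRC library of JV6314). A library of each fraction thus held no read of a gene that others held at over 100 counts.

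The kinesins of this group were low. Kif23, a subunit of centralspindlin, had 26, 8, 0 and 9 counts in LLRCs against none in non-LRC cells. Set against the floor of 3 non-LRC counts it was 10.02-fold higher, or 5.65-fold without JV602. Kif11, the motor that separates spindle poles, had 1, 2, 6 and 0 counts against none. Set against the same floor this was 2.10-fold, a ratio that rests on few reads. Without JV624 the 3 counts left were at the floor, so no fold is given. Kif20a, which recruits kinases to the central spindle, was read in both fractions, with 8, 17, 0 and 14 counts in LLRCs against 4, 1, 3 and 44 in non-LRC cells, and 29.3% of its exon bases are shared with Cdc23 on the opposite strand. Tpx2, an activator of Aurora A, had 60 counts in LLRCs against 54 in non-LRC cells, and its non-LRC mean went from 2.41 to 1.24 CPM without JV6314. Nusap1 had 47 counts against 19, of which 18 came from JV602, and Anln (anillin) had 30 against 70, of which 67 came from JV6314.

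Other genes of the same processes were listed by role. Of 43 other replication genes, 37 were tested and 0 had an adjusted p below 0.05 in edgeR, with 3 higher and 0 lower at an unadjusted p below 0.05 (over all genes tested, 1.6% and 3.56%), 21 above 0 and 16 below, and a median log2 fold change of 0.16. The groups did not overlap for 2 of the 37, both higher in LLRCs, against 2.15% of genes tested. Rfc4, a subunit of the clamp loader, had 189, 124, 126 and 234 counts in LLRCs against 57, 36, 56 and 37 in non-LRC cells, and the groups did not overlap. Its log2 fold change was 1.33 (SE 0.36, adjusted p = 0.403 in edgeR). DESeq2 gave an adjusted p of 0.00359 for it, in a range of 0.00359 to 0.994 over 18 alternatives. Prim1, the primase subunit, had 542, 279, 421 and 426 counts against 186, 54, 125 and 147, also without overlap on the CPM scale (log2 fold change 1.22, SE 0.38, adjusted p = 0.567 in edgeR). The largest fitted increase was that of Gins3 (log2 fold change 2.64, adjusted p = 0.841 in edgeR) and the largest decrease that of Mcm10 (-1.88), with 145 of its non-LRC counts in the library of JV624. Over 18 alternatives Gins3 lay between 1.87 and 3.02 and Mcm10 between -2.61 and -0.411.

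Of 62 other mitosis genes, 27 were tested and 0 were called in edgeR, with 1 higher and 1 lower at an unadjusted p below 0.05 (beside the same 1.6% and 3.56%), 13 above 0 and 14 below, and a median log2 fold change of -0.08. These were Kif20b, a kinesin of cytokinesis (54, 212, 258 and 5 counts in LLRCs against 28, 1, 6 and 0, log2 fold change 3.81, adjusted p = 0.819 in edgeR), and Cit, the citron kinase. Cit had 7, 14, 0 and 0 counts against 25, 15, 42 and 48, and the groups did not overlap on the CPM scale (log2 fold change -3.21, adjusted p = 0.823 in edgeR). The groups also did not overlap for a pair of genes too low to test, both higher in LLRCs. Over the 62 genes this made 2 higher and 1 lower, against 1.59% and 1.15% of all genes with a count. Kif2c, which depolymerises microtubules at kinetochores, had 3, 6, 7 and 14 counts in LLRCs and 0 in every non-LRC library, and Cdca2, a phosphatase regulator on mitotic chromatin, had 19, 7, 7 and 7 against 6, 0, 1 and 0. Of 16 transcription regulators of the cell cycle, 10 were tested, 0 were called in edgeR and 0 had an unadjusted p below 0.05, with fold changes from -1.08 (E2f3) to 1.49 (Lin54) on the log2 scale and a median of 0.21. Over 18 alternatives E2f3 lay between -1.97 and -0.205 and Lin54 between 1.08 and 2.94. Foxm1, an activator of mitosis genes, had 2, 0, 2 and 0 counts in LLRCs against 12, 0, 1 and 0 in non-LRC cells and was not tested. DESeq2 called 1 gene of these 3 lists, Rfc4, and limma and the edgeR exact test called 0.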

How the data were processed

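The authors deposited raw counts per gene, made with HTSeq 0.5.3p9 in union mode on exons without strand (GRCm38.p4, Ensembl), which leaves reads in overlapping genes unassigned. The aligner is not given in the sources used here. The authors' table of their own edgeR comparison (fold changes, abundance, p-values) was not used. Symbols came from GENCODE M21 for 46005 of 46603 identifiers, and 598 had none. Exon length is the union over a gene's transcripts.

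From the counts, 13605 genes passed filterByExpr, sizes were scaled by TMM (factors 0.816 to 1.23), and the 2 groups of 4 libraries were compared with edgeR 4.0.16 (R 4.3.3; glmQLFit, glmQLFTest, default settings, Benjamini-Hochberg, threshold 0.05), checked on simulated counts. DESeq2 1.42.0, limma 3.58.1, the edgeR exact test, other scalings and filters, a term for the mouse, and the omission of each library in turn were alternatives. Leaving out both libraries of JV621, or the non-LRC libraries of JV621 and JV6314, was chosen after seeing the data.

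Same-numbered libraries come from the same mouse, so the numbers pair them, and the correlation of their deviations from the group means was 0.0898 in JV602, 0.0985 in JV621, 0.00397 in JV624 and 0.188 in JV6314. Members and lists were chosen with earlier results of these data known. Per-library values were due for Pbk, Mki67 and the most abundant and most changed member of each role (Mcm6, Cdc45, Pcna, Tyms, Cdc20, Cenpa, Ect2 and Prc1), and for the gene of each pathway list with the largest rise or fall. Other genes given by library were picked after their values were seen. Floors of 3 counts allow for counting error in the group at 0 only. Folds set against them take the other group's counts as read and leave out the spread between libraries.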

Additional observations from a re-analysis of the deposited data

Results flagged for a closer look

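In each group of 4 libraries, a member's highest or lowest CPM was compared with the others by Dixon's gap criterion. Of 76 such groups, 15 held a value far from the other 3, and chance marks about 1 in 20 groups of evenly measured values. That rate does not hold here, since a group with 3 zeros always meets the criterion: 8 of the 15 were such groups (Cdc6, Melk, Ube2c and Birc5 in non-LRC cells, and Plk1 and Bub1b in both fractions), and 7 came from the other 68. Of these values, 6 came from the non-LRC library of JV6314, where each was the highest of its group. They were Ccna2 at 3.75 CPM, Bub1b at 6.12 CPM, Birc5 at 1.38 CPM, Kif20a at 8.68 CPM, Prc1 at 23.3 CPM and Anln at 13.2 CPM.

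The other non-LRC values that stood apart were Cdc6 at 0.835 CPM and Melk at 3.97 CPM in JV621, Plk1 at 0.947 CPM and Ube2c at 0.158 CPM in JV624, and Nusap1 at 2.25 CPM in JV602. In these groups most other libraries were at or near 0. In LLRCs, Pcna was at 83.7 CPM in JV6314, Plk1 at 0.194 CPM in JV602 and Bub1b at 1.18 CPM in JV621, each above the other 3 libraries, and Tpx2 was at 0.147 CPM in JV624, below the other 3. Several of these rest on few reads, such as 1 count for Ube2c and for Tpx2 and 2 counts for Plk1.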

How the results depend on the processing

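In edgeR's quasi-likelihood test 0 members were called under every filter, scaling, left-out library and the mouse block. DESeq2 called 1 member higher (Pbk) and 1 lower (Cenpa), the exact test called 1 higher, and DESeq2 called 1 gene of the pathway lists. The replicate block (mouse) called 0 members, moved the members' median log2 fold change from -0.08 to 0.36 (all genes from -0.01 to 0.14), and turned Cdk1 to 0.30, Prc1 to 1.22, Rrm2 to 0.47 and Tpx2 to 0.36. Members without overlap numbered 1 to 4 with LLRCs higher and 0 to 2 with LLRCs lower when 1 library was left out, and 4 with LLRCs higher without the non-LRC libraries of JV621 and JV6314, where the shares of genes tested without overlap were 3.05% to 6.16%, 2.26% to 4.56% and 7.5%, in that order. Of the log2 fold changes recomputed for 25 genes, 415 kept sign and call, 30 changed sign and 4 passed the threshold, all of the sign changes in genes that were not called. Mcm6 was -0.027 in DESeq2, -0.25 in limma and -0.026 with DESeq2 size factors, Pcna 0.0013 in limma, Cdk1 0.82, Ect2 -0.25 and Prc1 1.54 in limma. With 1 library left out, Mcm6 ran from -0.21 to 0.27, Pcna from -0.48 to 0.20, Cdk1 from -1.03 to 0.82, Ect2 from -0.02 to 1.69 and Prc1 from -2.25 to 2.69. With both libraries of JV621 also left out together, Mcm3 ran from -0.067 to 0.75, Mcm4 from -0.079 to 0.64 and Top2a from -1.71 to 0.034, and without both Cdk1 was -1.37, Pcna 0.28 and Ect2 -0.20. Without the non-LRC libraries of JV621 and JV6314, Mcm6 was -0.27, Pcna 0.11, Cdk1 0.46, Top2a 0.24 and Prc1 2.62. The causes of the sign changes were not tested. Depth limits members under 3 counts, which is 0.291 to 0.626 CPM in a library.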
